A study of Rattus norvegicus with 6 samples.

Results

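The mitotic genes described here are Mki67, Top2a, Ccnb1, Ccna2, Cdk1, Aurka, Aurkb, Plk1, Bub1b and Cdc20, which cells transcribe mainly while they prepare for and pass through division. Rows of the deposited expression table were taken where their transcript identifier carries one of these symbols in the RefSeq rat annotation, and the values of an animal were summed per gene. This gave 9 genes of the 10, out of 12340 named genes in the table, and Top2a had no row by this rule. 1 row whose identifier the annotation did not match is described in the deposited table as rat DNA topoisomerase 2-alpha, the protein that Top2a encodes. Its values are given beside the other 9 as the topoisomerase 2-alpha row and enter none of their counts.

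The tissue was the colon's inner epithelial layer, from which RNA was sequenced in 6 male adults of the Wistar stock, an outbred laboratory rat. All 6 had lost the pineal gland to surgery, so none had the gland's own nightly melatonin. 3 rats were injected intraperitoneally with melatonin at 1 mg/kg, and 3 with vehicle, 2.5% ethanol in PBS, both as subjective night began, and the rats were killed after 4 h. Each rat is a separate sample, the melatonin rats being animals 4, 5 and 6 and the vehicle rats animals 1, 2 and 3. The comparison asks what 1 evening dose of the hormone does to gene expression in the colonic lining within hours. Expression is given as FPKM, a fragment count divided by the transcript's length and the library's mapped total, and the depth estimated from the spacing of low values was 3280000 to 3590000 fragments per library. The 9 genes rest on 27 to 1153 estimated fragments per gene and library.

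In the colon, division is confined to the crypts, where stem cells at the base feed a zone of rapidly cycling progenitors, and the cells that reach the surface no longer divide. A cell enters mitosis when cyclin A and cyclin B activate the kinase Cdk1, helped by the Polo and Aurora kinases, which also build the spindle. The spindle checkpoint then holds the anaphase-promoting complex until every chromosome is attached, and release of its activator Cdc20 lets the cyclins be destroyed and the sister chromatids part. In mammalian cells many genes of this group are read late in the cycle through 2 short promoter elements: a CCAAT box bound by the factor NF-Y, and the cell cycle genes homology region, or CHR, bound by the MuvB core that carries p130 and E2F4 in resting cells and B-MYB and FOXM1 in dividing ones. In a bulk sample, fewer dividing cells and less of these RNAs per dividing cell cannot be told apart.

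The promoters of 6 of the genes are printed here because they show these elements in their different arrangements: some genes hold both and Ccnb1 only 1 kind. The Aurka window holds neither, but it may not be the gene's promoter. The sequences are RefSeq's for the rat assembly GRCr8, read 5′ to 3′ on the gene's own strand, from 120 bases before to 30 bases after the annotated start. They lie, in the order printed, with Cdk1 at chr20:19265173-19265322 on the plus strand, Cdc20 at chr5:137255770-137255919 on the minus strand, Plk1 at chr1:186147538-186147687 on the plus strand, Mki67 at chr1:199952564-199952713 on the minus strand, Ccnb1 at chr2:33655196-33655345 on the minus strand and Aurka at chr3:181560740-181560889 on the minus strand. Capitals mark the CCAAT box, which reads ATTGG where it lies on the other strand. They also mark the CHR, searched on both strands as TTTGAA. A second form, TTCGAA, was searched too and is in none of the 6. No further form of the CHR was searched. The window and the motifs were chosen after the sequences had been seen.
Cdk1: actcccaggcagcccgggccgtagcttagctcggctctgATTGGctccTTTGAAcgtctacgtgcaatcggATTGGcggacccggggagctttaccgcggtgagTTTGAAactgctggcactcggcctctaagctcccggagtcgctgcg
Cdc20: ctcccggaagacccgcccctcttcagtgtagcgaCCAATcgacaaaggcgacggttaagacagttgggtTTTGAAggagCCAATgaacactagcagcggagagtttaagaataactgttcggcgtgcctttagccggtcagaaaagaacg
Plk1: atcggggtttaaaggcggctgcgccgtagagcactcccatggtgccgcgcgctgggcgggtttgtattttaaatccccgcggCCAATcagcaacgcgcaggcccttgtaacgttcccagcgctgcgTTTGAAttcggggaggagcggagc
Mki67: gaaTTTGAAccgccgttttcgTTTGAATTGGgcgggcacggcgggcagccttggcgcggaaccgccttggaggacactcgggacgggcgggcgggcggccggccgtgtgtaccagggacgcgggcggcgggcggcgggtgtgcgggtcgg
Ccnb1: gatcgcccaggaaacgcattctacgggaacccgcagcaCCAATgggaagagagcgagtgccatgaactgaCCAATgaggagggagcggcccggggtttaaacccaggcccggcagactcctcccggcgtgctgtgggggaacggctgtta
Aurka: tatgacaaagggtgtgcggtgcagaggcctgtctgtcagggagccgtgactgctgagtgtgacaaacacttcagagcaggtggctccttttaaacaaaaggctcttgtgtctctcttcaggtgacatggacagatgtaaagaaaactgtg

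Promoters of 8 of the 10 genes were in the RefSeq table used here, with Ccna2 and Aurkb the other two. CCAAT stood in 6 of the 8, or 75%, against 22.7% of the 33469 promoter windows of the same length in the rat table. The CHR, in these genes always in its first form, also stood in 6 of the 8, or 75%, against 9.11% of all windows. Both kinds stood together in 5 of the 8, or 62.5%, against 2.28% of all windows. Cdk1 carried 2 of each, with the CHR beginning 72 and 16 bases before the start. In Cdc20 the element began 51 bases before the start, between CCAAT boxes at 86 and 41, and in Plk1 it began 7 bases after the start. In Mki67 the second CHR, 99 bases before the start, overlaps the CCAAT box by its last letter. Ccnb1 held 2 CCAAT boxes without the other element in this window, Bub1b held a CHR alone, 4 bases before the start, and Top2a held both. The Aurka window held neither. Its annotated start directly follows letters that end like an intron and shortly precedes an ATG. That window may therefore lie inside the gene and not at its promoter, and it is counted among the 8. A match describes letters and not a bound site, and a window without one says only that these letters are not there.

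The melatonin and vehicle animals overlapped at every one of these genes. Of the 9, 0 passed limma's test at an adjusted p under 0.05, where 0% of the 10137 features tested passed, and 0 had an unadjusted p under 0.05, against 3.75% of all features, 1.82% higher and 1.92% lower. In 0 of 9 did all melatonin animals lie above or below all vehicle animals, a pattern seen in 8.38% of all features, 4.04% above and 4.33% below. The estimated changes of log2(FPKM + 1), taken as melatonin minus vehicle, were positive for 5 genes, where 46% of all features were positive, and negative for 4, with a median of 0.16 against -0.02 over all features. For all 9 genes the range among the 3 vehicle animals and the range among the 3 melatonin animals were each wider than the distance between the group means. What most of the genes shared was that 1 melatonin rat and 1 vehicle rat stood high together.

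**Figure D1:**
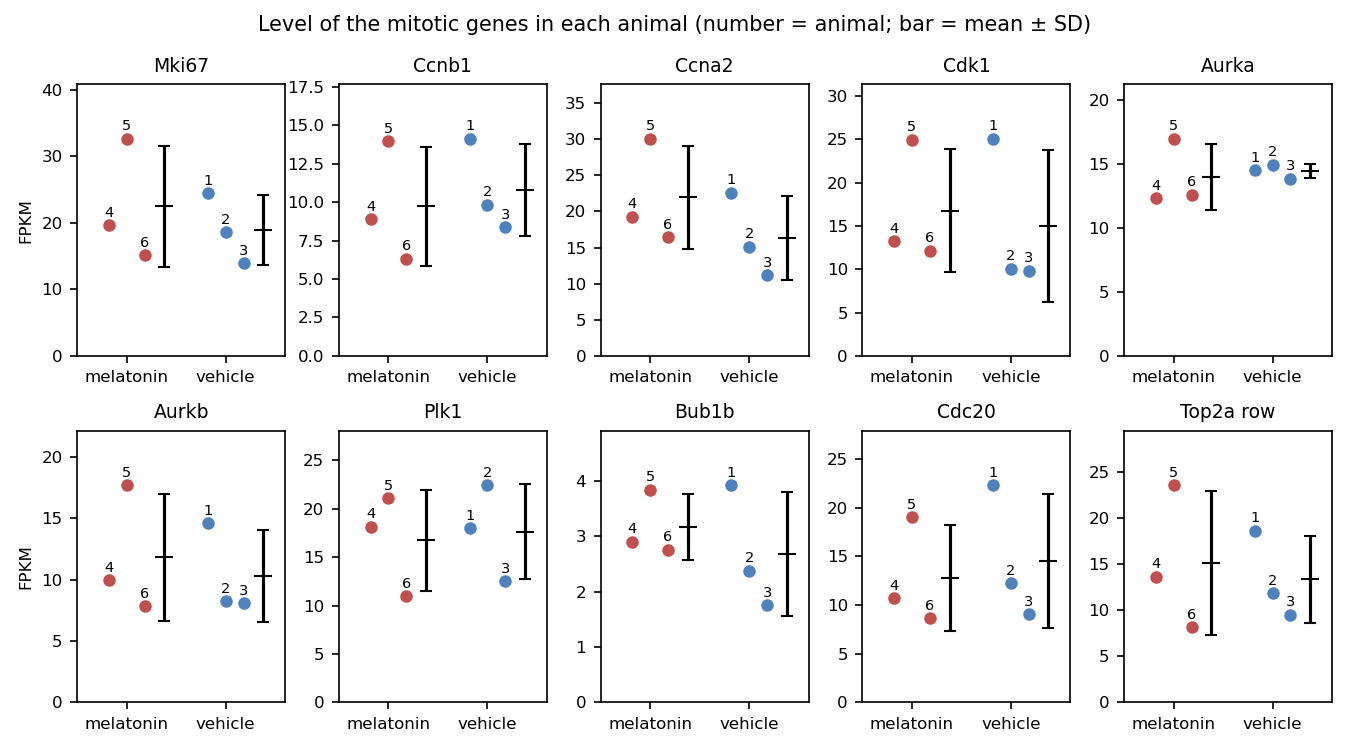
FPKM (y axis, linear) of each gene and of the topoisomerase 2-alpha row in the 3 melatonin animals (left in each panel) and the 3 vehicle animals (right), with 1 point per animal and a bar at the group mean with its SD. Melatonin animal 5 and vehicle animal 1 are high in most panels, as in Mki67 at 32.6 and 24.4 FPKM, and the groups overlap in every panel.

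Mki67, which encodes the nuclear protein Ki-67 that coats mitotic chromosomes and marks cycling cells, had 19.7, 32.6 and 15.2 FPKM in melatonin animals 4, 5 and 6, against 24.4, 18.6 and 13.9 FPKM in vehicle animals 1, 2 and 3. Animal 5 was highest and vehicle animal 1 second, and the remaining animals of the groups interleave. The group means were 22.5 ± 9.06 FPKM after melatonin and 19.0 ± 5.27 FPKM after vehicle (SD, n = 3 each). The log2 change was 0.20 ± 0.29 (SE), with a limma adjusted p of 0.974. The topoisomerase 2-alpha row, for the enzyme that untangles sister DNA before separation, had 13.7, 23.6 and 8.17 FPKM in melatonin animals and 18.6, 11.9 and 9.53 FPKM in vehicle animals. Its highest animals were the same pair as for Mki67, and its log2 change was 0.10 ± 0.36, with a limma adjusted p of 0.984.

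Ccna2 encodes cyclin A2, which serves both DNA replication and mitotic entry and is destroyed before the B-type cyclins. It had 19.3, 30.1 and 16.5 FPKM in melatonin animals 4, 5 and 6, against 22.6, 15.1 and 11.2 FPKM in vehicle animals 1, 2 and 3. All melatonin animals lay above vehicle animals 2 and 3, and vehicle animal 1 lay above melatonin animals 4 and 6, so that 1 animal made the groups overlap. Its log2 change of 0.42 ± 0.28 was the largest of the 9, with a 95% interval of -0.23 to 1.07, an unadjusted p of 0.179 and a limma adjusted p of 0.972. The means were 21.9 ± 7.17 FPKM after melatonin and 16.3 ± 5.81 FPKM after vehicle (SD, n = 3 each). The authors' deposited table gives Ccna2 a log2 ratio of 0.43.

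Ccnb1, for cyclin B1, the partner that carries Cdk1 through metaphase, had 8.88, 14.0 and 6.32 FPKM in melatonin animals 4, 5 and 6, against 14.1, 9.84 and 8.39 FPKM in vehicle animals 1, 2 and 3. Vehicle animal 1 and melatonin animal 5 were level at the top, and melatonin animal 6 was lowest. The log2 change was -0.17 ± 0.29, of the opposite sign to that of Ccna2, with an interval of -0.83 to 0.49 and a limma adjusted p of 0.976. Cdk1, the kinase both cyclins activate, had 13.2, 24.97 and 12.2 FPKM in melatonin animals and 25.07, 10.1 and 9.84 FPKM in vehicle animals. Here the pair stood furthest apart from the rest: these held 24.97 and 25.07 FPKM while the other 4 animals lay between 9.84 and 13.2 FPKM. The log2 change of Cdk1 was 0.21 ± 0.38, the widest error of the 9, with a limma adjusted p of 0.976.

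Among the kinases of the spindle, Aurkb, the catalytic subunit of the chromosomal passenger complex that corrects faulty attachments, had 9.98, 17.7 and 7.84 FPKM in melatonin animals 4, 5 and 6, against 14.6, 8.22 and 8.10 FPKM in vehicle animals 1, 2 and 3. The same pair was highest and the other 4 animals lay close together. Its log2 change was 0.16 ± 0.32, with a limma adjusted p of 0.977. Plk1, the Polo-like kinase of mitotic entry and spindle poles, had 18.2, 21.1 and 11.0 FPKM in melatonin animals and 17.97, 22.4 and 12.5 FPKM in vehicle animals. For this gene vehicle animal 2 was highest and vehicle animal 1 was no higher than melatonin animal 4. Its log2 change was -0.08 ± 0.27, with a limma adjusted p of 0.983.

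Aurka, which encodes the Aurora kinase of the centrosome, was the steadiest of the 9. It had 12.3, 17.0 and 12.6 FPKM in melatonin animals 4, 5 and 6, against 14.5, 14.9 and 13.8 FPKM in vehicle animals 1, 2 and 3. All 3 vehicle animals lay inside the span of the melatonin animals, and only animal 5 stood out upward. Its highest value was 1.38 times its lowest, where the other 8 genes spanned 2.04 to 2.69 times. The log2 change was -0.06 ± 0.16, with the narrowest interval of the 9, -0.42 to 0.30, and a limma adjusted p of 0.982.

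Bub1b, for BubR1, the checkpoint protein that holds Cdc20 in the mitotic checkpoint complex, had the lowest level. It had 2.90, 3.84 and 2.76 FPKM in melatonin animals 4, 5 and 6, against 3.92, 2.38 and 1.75 FPKM in vehicle animals 1, 2 and 3. Vehicle animals 2 and 3 lay below every melatonin animal, and vehicle animal 1 lay above them all. The log2 change was 0.21 ± 0.27, with a limma adjusted p of 0.974. Cdc20, the activator of the anaphase-promoting complex, had 10.7, 19.0 and 8.65 FPKM in melatonin animals and 22.3, 12.3 and 9.09 FPKM in vehicle animals. Vehicle animal 1 was highest and animal 5 second. The means were 12.8 ± 5.49 FPKM after melatonin and 14.6 ± 6.90 FPKM after vehicle (SD, n = 3 each), and the log2 change was -0.15 ± 0.35, with a limma adjusted p of 0.980.

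**Figure D2:**
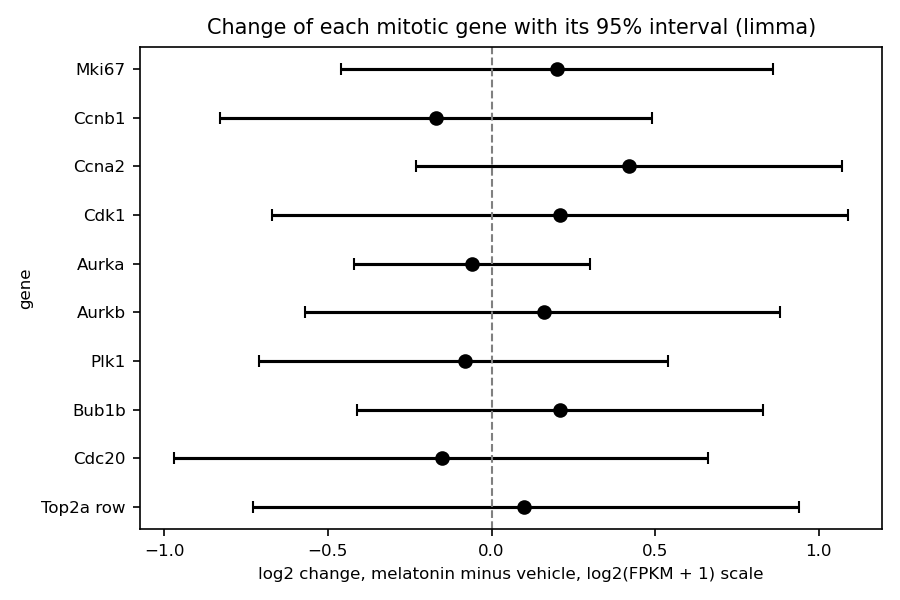
Log2 change of each gene and of the topoisomerase 2-alpha row (x axis, limma estimate on log2(FPKM + 1), melatonin minus vehicle), with bars for the 95% confidence interval and a dashed line at 0. Every interval contains 0, and over the 9 genes the intervals reach from -0.97, for Cdc20, to 1.09, for Cdk1.

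The intervals state what 3 animals a group could resolve. Over the 9 genes they ran from -0.97 to 1.09. An increase of 1 on the log2 scale lay inside the interval of Cdk1 and of Ccna2 only. The upper bounds of the other genes ran from 0.30 for Aurka to 0.88 for Aurkb. Per kilobase, the mean over all 6 animals was highest for Mki67 at 20.7 FPKM, followed by Ccna2 at 19.1, Plk1 at 17.2, Cdk1 at 15.9, Aurka at 14.2, Cdc20 at 13.7, Aurkb at 11.1, Ccnb1 at 10.3 and Bub1b at 2.93 FPKM. Between neighbours in this order, only Cdc20 over Aurkb and Ccnb1 over Bub1b differed by more than the SD of their log2 ratio between animals, and in each of those the first was higher in 6 of 6 animals. Plk1 and Cdk1 changed places in 3 of the 6 animals.

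Across animals most of the genes had the same pair on top. Melatonin animal 5 and vehicle animal 1 were the 2 highest animals for 7 of the 9 genes, where this pair was highest for 6.56% of all tested features. For Aurka and Plk1 the 2 highest were melatonin animal 5 and vehicle animal 2. The lowest animal was melatonin animal 6 for 4 genes, vehicle animal 3 for 4 and melatonin animal 4 for Aurka. Melatonin animal 6 was lowest for 33.4% of all features and vehicle animal 3 for 14.1%. The geometric mean of the 9 genes was 11.3, 17.6 and 9.25 FPKM in melatonin animals 4, 5 and 6, against 15.9, 10.9 and 8.70 FPKM in vehicle animals 1, 2 and 3. Melatonin animals 4 and 6 thus lay nearer to each other than to animal 5, and vehicle animals 2 and 3 nearer to each other than to animal 1.

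**Figure D3:**
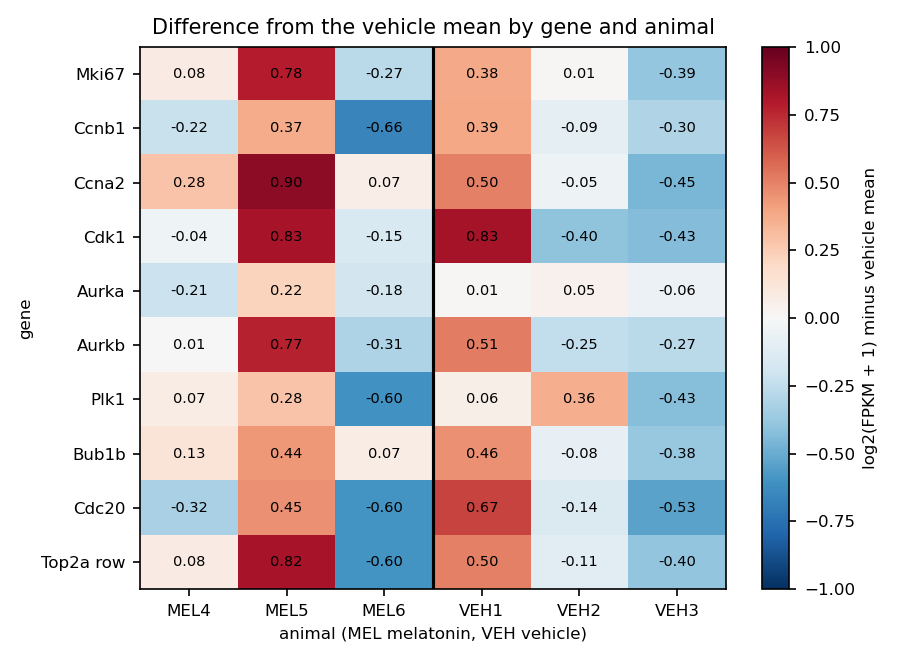
Log2(FPKM + 1) of each gene and of the topoisomerase 2-alpha row (rows) in each animal (columns, melatonin animals left and vehicle animals right), minus the mean of the vehicle animals, with colour from blue (lower) to red (higher). Melatonin animal 5 and vehicle animal 1 are red in most rows, up to 0.90 for Ccna2 in animal 5 and 0.83 for Cdk1 in both, while Aurka stays within -0.21 to 0.22.

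The spread of these genes over the 6 animals was wider than that of genes at similar levels. The highest animal had a median of 2.25 times the lowest over the 9 genes, against a median of 1.65 times and an upper quartile of 2.1 times over the 5737 features with a mean of 2 to 25 FPKM. Much of it was common to the 9. Dividing each gene by the geometric mean of the 9 in the same animal, a step added after the shared high animals had been seen, lowered the coefficient of variation of 8 genes, and the median fell to 14.7% after this step, against 33.3% before it. The features of similar level moved the other way, to a median of 31.7% after the step, against 18.6% before it, and 8.12% of them became less variable. The 9 genes themselves make up the divisor, so a lower spread is in part built in. Mki67 followed the common level most closely, at 6.82% after the step and 33.3% before it. Aurka was the exception, at 21.9% after the step and 12.0% before it, and Plk1 kept most of its spread, at 24.4% and 26.6%.

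Relative to that common level, cyclin A2 and cyclin B1 parted between the groups. Ccna2 stood at 1.70, 1.71 and 1.78 times the geometric mean in melatonin animals 4, 5 and 6, against 1.42, 1.38 and 1.28 times in vehicle animals 1, 2 and 3. All 3 melatonin animals lay above all 3 vehicle animals. Ccnb1 stood at 0.784, 0.796 and 0.683 times the geometric mean in melatonin animals, against 0.888, 0.900 and 0.964 times in vehicle animals, with all melatonin animals below all vehicle animals. These were 2 of 9 genes whose groups did not overlap on this scale. The share of all tested features was 1.62%, 0.779% above and 0.839% below, but the divisor carries the variation of the 9 genes into every other feature and out of their own values. That share was 8.38% before the step, so nothing about the 2 genes is read from it. An exact permutation test of 3 against 3 animals cannot give a two-sided p below 0.1. The limma fit on values divided in this way put the change of Ccna2 at 0.33 ± 0.42 and that of Ccnb1 at -0.26 ± 0.42. Each had a limma adjusted p of 1.0, and the fit called 0 of the 9. Its SE was 0.42 or 0.43 for every one of the 9. The method draws errors toward those of the other features, which the divisor had widened. This fit therefore cannot decide whether the 2 genes differ between the groups.

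**Figure D4:**
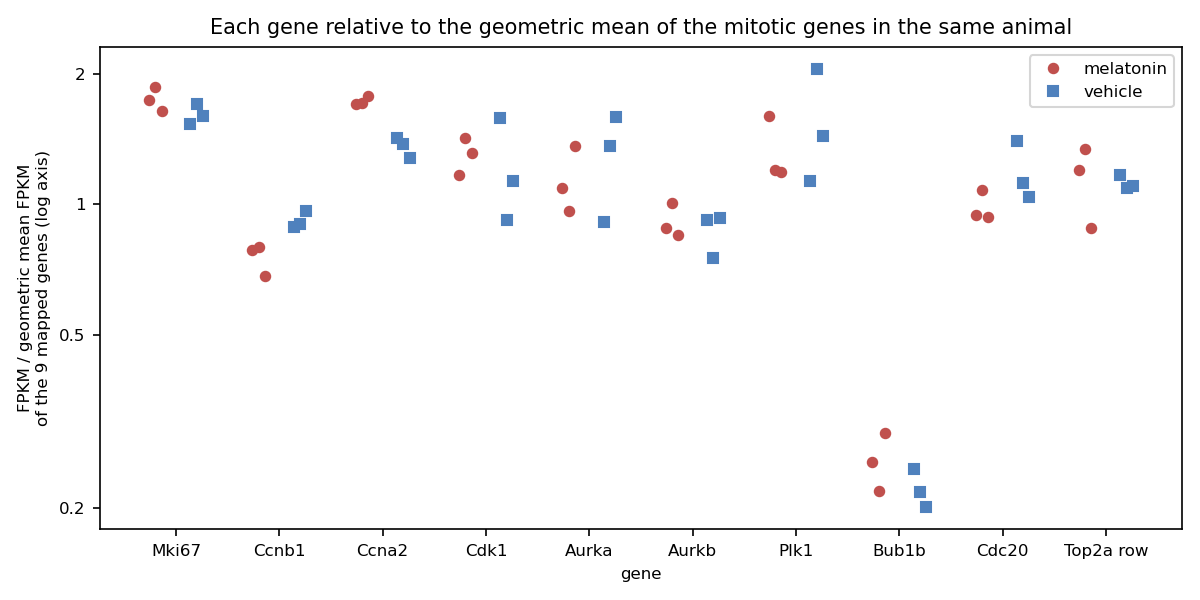
FPKM of each gene divided by the geometric mean of the 9 genes in the same animal (y axis, log scale), and of the topoisomerase 2-alpha row, for the 3 melatonin animals (circles, left) and the 3 vehicle animals (squares, right), 1 point per animal. The groups are apart for Ccna2, at 1.70 to 1.78 against 1.28 to 1.42, and for Ccnb1, at 0.683 to 0.796 against 0.888 to 0.964, and overlap for the other genes.

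The ratio of 1 gene to another in the same animal needs no common divisor. Ccna2 over Ccnb1 was 2.17, 2.15 and 2.61 in melatonin animals 4, 5 and 6, against 1.60, 1.54 and 1.33 in vehicle animals 1, 2 and 3. The mean ratio was 2.31 ± 0.257 after melatonin and 1.49 ± 0.140 after vehicle (SD, n = 3 each). Ccna2 over Cdc20 was 1.80, 1.58 and 1.90 in melatonin animals, against 1.01, 1.23 and 1.23 in vehicle animals, so that in both ratios the groups were apart. Of the 36 pairs among the 9 genes, 8 did not overlap between the groups, or 22.2%. Over all pairs of the 5690 features with a mean of 2 to 25 FPKM and no value of 0, 9.67% did not overlap. Cdc20 was a partner in 5 of these 8 and Ccnb1 in 3, and in each of these ratios it was the gene with the smaller share after melatonin. Ccna2 was a partner in 2, the same number as Mki67 and as Aurkb. Cdk1 and Bub1b were each a partner in 1, and Aurka and Plk1 in 0. The pairs share genes and were compared after the members had been seen, so that neither share carries a test.

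Other genes of mitosis, in 6 lists, showed no called change either. Among 17 tested regulators of mitotic entry and of cyclin-dependent kinases, 0 passed at an adjusted p under 0.05 and 0 at an unadjusted p under 0.05, with a median log2 change of 0.16, and the pair of high animals led for 7. Cdc25b, a phosphatase that activates Cdk1, had the smallest p there. It had 8.90, 9.95 and 5.85 FPKM in melatonin animals 4, 5 and 6, against 11.3, 12.1 and 10.8 FPKM in vehicle animals 1, 2 and 3. All melatonin animals lay below all vehicle animals, and groups that did not overlap were seen for 1 of the 17, against 8.38% of all features. The log2 change of Cdc25b was -0.45 ± 0.20, with an unadjusted p of 0.0514 and a limma adjusted p of 0.972. The most abundant members were Cks2, a small subunit of the Cdk complex, with a log2 change of 0.02 ± 0.36, and Ccnb2, for cyclin B2, with -0.21 ± 0.28.

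In the checkpoint and kinetochore list, 0 of 17 tested genes passed at either threshold, the median change was 0.02, and melatonin animal 5 and vehicle animal 1 were the 2 highest for 11. Ska3, of the complex that couples kinetochores to microtubules, had the smallest p, at a change of 0.54 ± 0.30 and an unadjusted p of 0.105. Bub3, the partner of BubR1, was the most abundant with 46.6, 47.4 and 34.9 FPKM in melatonin animals against 38.5, 41.3 and 41.5 FPKM in vehicle animals. Mad2l1, for the checkpoint protein Mad2, had a change of 0.47 ± 0.34 and a limma adjusted p of 0.972, like Ska3. For 11 tested genes of the chromosomal passenger complex and cytokinesis the counts passed were again 0, the median was 0.04, and the pair led for 9. Incenp, the scaffold that binds Aurora B, had 17.2, 22.3 and 13.6 FPKM in melatonin animals and 15.5, 13.3 and 12.5 FPKM in vehicle animals, with a change of 0.32 ± 0.19 and an unadjusted p of 0.129. Racgap1, of the central spindle, had a change of 0.04 ± 0.31.

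Of 17 tested spindle motors and assembly factors, 0 passed at either threshold, the median was -0.01, and the pair led for 13. Kif18a, the kinesin that trims spindle microtubules, had 2.90, 3.19 and 3.86 FPKM in melatonin animals 4, 5 and 6, against 2.17, 2.16 and 2.76 FPKM in vehicle animals 1, 2 and 3. It had the smallest p of the list, and its groups did not overlap, which held for 1 of the 17, against 8.38% of all features. The log2 change of Kif18a was 0.36 ± 0.21, with an unadjusted p of 0.131 and a limma adjusted p of 0.972. Kpna2, an importin that regulates spindle factors, had a change of -0.11 ± 0.14, and Stmn1, for the microtubule destabiliser stathmin, 0.11 ± 0.18. Of 11 genes of condensin, tubulin and chromosome structure, 0 passed at either threshold, the median was 0.09 and the pair led for 8. There Tubb5, a beta-tubulin, had the smallest p, at a change of 0.38 ± 0.21, and Tuba1b, an alpha-tubulin, was the most abundant, at a mean of 385 ± 81.9 FPKM after melatonin and 334 ± 63.7 FPKM after vehicle (SD, n = 3 each).

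The anaphase-promoting complex, which the mitotic kinases switch on and Cdc20 directs, marks the cyclins and securin for destruction. Of its 18 tested subunits, activators, inhibitors and substrates, 0 passed at either threshold, the median was -0.08, and melatonin animal 5 and vehicle animal 1 were highest for 4. Fzr1, for the activator Cdh1 that takes over from Cdc20, had 28.6, 30.9 and 20.6 FPKM in melatonin animals and 30.8, 31.1 and 37.2 FPKM in vehicle animals. Its log2 change was -0.31 ± 0.17, with an unadjusted p of 0.0971. Anapc5, a scaffold subunit, had a change of 0.12 ± 0.11, and Ube2s, the enzyme that lengthens ubiquitin chains, 0.01 ± 0.14. A list of inhibitors of cyclin-dependent kinases and pocket proteins also held E2f4, Btg1 and Btg2, which are neither. Of its 12 tested genes, 0 passed at either threshold, with a median of -0.09, and the pair led for 3. Cdkn2d, an inhibitor of Cdk4 and Cdk6, had the smallest p, at a change of -0.31 ± 0.22, while the abundant Btg1 and Cdkn1a, for the inhibitor p21, had -0.14 ± 0.16 and 0.01 ± 0.16.

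Genes of the G1 and S phases, which precede mitosis, are given as the nearest neighbours in the cycle. Of 39 tested, 0 passed at an adjusted p under 0.05 and 6 were higher at an unadjusted p under 0.05, against 1.82% of all features. The log2 change was positive for 35 and negative for 4, with a median of 0.28, and all melatonin animals lay above all vehicle animals for 8, where 4.04% of all features did so. Mcm4, a subunit of the replicative helicase, had 16.6, 22.7 and 17.6 FPKM in melatonin animals 4, 5 and 6, against 13.9, 12.4 and 11.0 FPKM in vehicle animals 1, 2 and 3. Its groups did not overlap, and its change was 0.56 ± 0.16, with an unadjusted p of 0.00793 and a limma adjusted p of 0.972. The abundant D-type cyclins had changes near 0, -0.03 ± 0.12 for Ccnd1 and 0.04 ± 0.13 for Ccnd2. The per-animal median of the G1 and S phase list, relative to the vehicle mean, was 0.14, 0.58 and 0.16 in melatonin animals and 0.12, -0.10 and -0.02 in vehicle animals. That of the 9 mitotic genes was 0.01, 0.45 and -0.27 in melatonin animals and 0.46, -0.08 and -0.39 in vehicle animals, so that vehicle animal 1 and melatonin animal 6 hold different places in these lists. Whether the lists differ in their response was not tested.

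**Figure D5:**
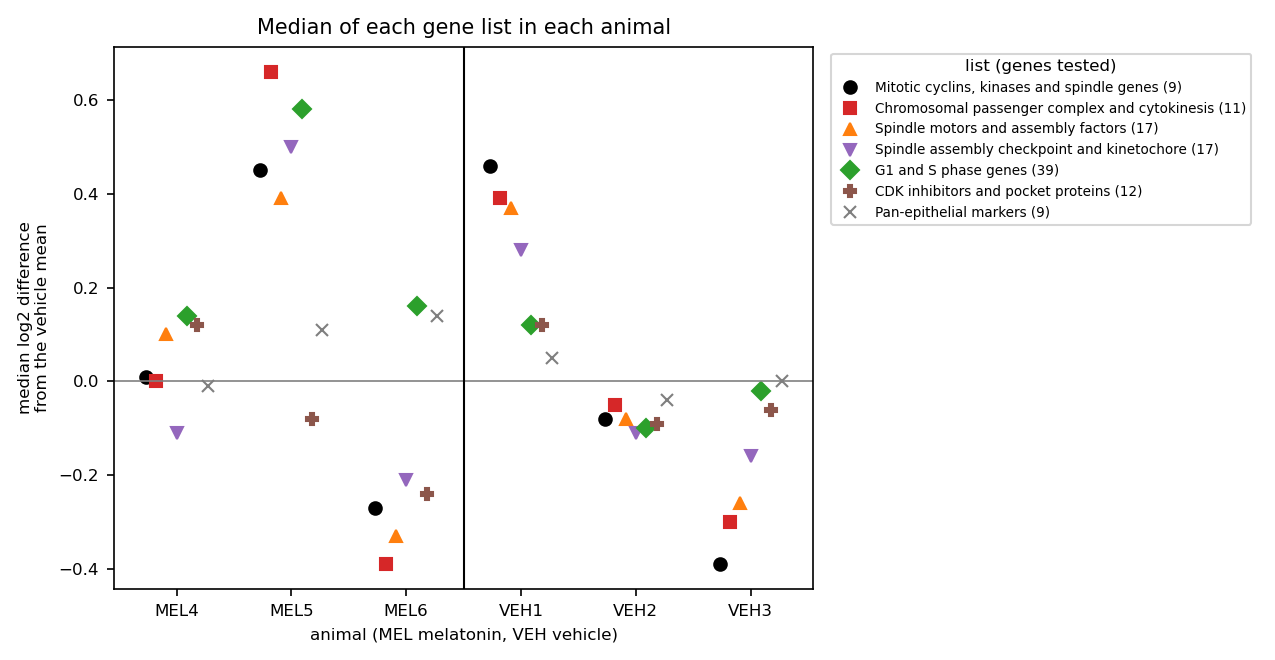
Median of log2(FPKM + 1) minus the vehicle mean over the tested genes of each list (y axis), in each animal (x axis, melatonin animals left and vehicle animals right), with 1 symbol per list. The mitotic cyclins, kinases and spindle genes peak at 0.45 in melatonin animal 5 and 0.46 in vehicle animal 1, while the G1 and S phase genes reach 0.58 and 0.12 in the same animals.

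The promoter elements were counted in the same lists. The CHR letters, in either form searched, stood in 90.9% of 11 promoters of the passenger and cytokinesis list, 62.5% of 16 of the entry regulators, 53.3% of 15 of the condensin list and 50% of 18 of the spindle motors. The share was 36.4% of 22 for checkpoint and kinetochore genes and 20% of 15 for the anaphase-promoting complex. It was 9.09% both of 33 promoters of G1 and S phase genes and of 11 of the inhibitor and pocket protein list, close to the 9.11% of all windows. CCAAT stood in 45.5% of the G1 and S phase promoters.

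Genes outside the 9 whose pattern over the 6 animals came closest to theirs were ranked by the root mean square difference of centred log2(FPKM + 1) profiles, among 7651 features with a mean of at least 5 FPKM. The closest was Cep55, a protein of the midbody at which daughter cells part, at 0.069. Its values were 4.45, 7.97 and 3.99 FPKM in melatonin animals 4, 5 and 6, against 7.77, 4.74 and 3.70 FPKM in vehicle animals 1, 2 and 3. Next came Hmgb2, a chromatin protein, at 0.089, Kif11, the motor that separates spindle poles, at 0.096, Cdk5rap2, a centrosome protein, at 0.101, and Cdca3 at 0.103. Idh1, the cytosolic isocitrate dehydrogenase, stood at 0.117 with 91.4, 134 and 65.2 FPKM in melatonin animals and 109, 75.9 and 76.2 FPKM in vehicle animals, with the same 2 highest animals though it is a metabolic enzyme. Ccnf, H2ax, Smc2 and Racgap1 followed at 0.120 to 0.130. Of the 100 closest, 33 belong to the lists of cell cycle genes used here, which hold 1.42% of the features ranked. The median difference over all features ranked was 0.375, and among the 9 genes themselves it ran from 0.091 for Mki67 to 0.279 for Plk1. The ranking describes these 6 animals and carries no test.

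The libraries carried the defining markers of colonic epithelium. The 9 measured of 10 pan-epithelial markers, led by Krt8, Krt19 and Epcam, summed to 9739 to 10530 FPKM in melatonin animals and 8876 to 10261 FPKM in vehicle animals. The 10 measured of 12 crypt base markers summed to 273 to 298 FPKM after melatonin and 245 to 306 FPKM after vehicle. Vehicle animals 1 and 2 had 306 and 305 FPKM, and melatonin animal 5 had 298 FPKM. Most of each sum was Prom1, at 150, 165 and 166 FPKM in melatonin animals and 153, 170 and 133 FPKM in vehicle animals. Melatonin animal 5 and vehicle animal 1 were the 2 highest for 4 of the 9 tested crypt base markers, against 6.56% of all features. Markers of other cells were far below the epithelial ones. All 7 fibroblast markers summed to 2.11 to 3.04 FPKM and 1.96 to 4.02 FPKM in melatonin and vehicle animals, and 8 germinal centre markers gave 55.6 to 62.1 FPKM and 58.2 to 61.4 FPKM, most of it Elf1. The 10 measured of 13 B and plasma cell markers summed to 19.6, 3.62 and 4.93 FPKM in melatonin animals and 3.13, 5.04 and 3.31 FPKM in vehicle animals, high in animal 4 and not in the pair that led the mitotic genes. The 13 T and NK cell markers summed to 15.5 to 33.9 FPKM after melatonin and 9.48 to 18.4 FPKM after vehicle. The 8 measured of 11 macrophage and dendritic cell markers summed to 25.1 to 36.4 FPKM after melatonin and 19.4 to 25.6 FPKM after vehicle, overlapping by a little. The 6 measured of 7 red blood cell genes summed to 129, 77.5 and 133 FPKM in melatonin animals and 152, 128 and 171 FPKM in vehicle animals, lowest in animal 5, and the 4 tested had negative changes, with a median of -0.42 and 0 at an adjusted p under 0.05. The part of these lists in the values of the mitotic genes was not tested. No feature in the deposited data was at 0 in every animal, so no measured marker could be. Listed markers without a row may have gone undetected.

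The 8 MHC class II genes, which present antigen and can be induced in gut epithelium, summed to 367, 1121 and 259 FPKM in melatonin animals 4, 5 and 6, against 388, 232 and 217 FPKM in vehicle animals 1, 2 and 3. Melatonin animal 5 stood far above the rest and was highest for 7 of the 8, while vehicle animal 1 was only a little above melatonin animal 4, and the pair were the 2 highest for 3 of the 8. Cd74, the invariant chain, made up most of the excess of animal 5, with 158, 631 and 86.2 FPKM in melatonin animals and 164, 75.4 and 59.9 FPKM in vehicle animals. The 6 measured of 8 neutrophil markers summed to 6.93, 12.3 and 7.03 FPKM in melatonin animals and 17.9, 7.79 and 0.71 FPKM in vehicle animals, so that the pair had the highest sums. The 2 abundant ones differed: S100a9 was highest in vehicle animal 1 and melatonin animal 5, at 11.6 and 9.72 FPKM, whereas S100a8 was highest in melatonin animal 4 and vehicle animal 2, at 4.46 and 3.80 FPKM, and had 0.87 FPKM in melatonin animal 5. The part of either list in the levels of the mitotic genes was not tested.

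The overlap of the groups rests in part on single animals. Without vehicle animal 1, 3 of the 9 genes had all melatonin animals above the vehicle animals left, Ccna2, Cdk1 and Bub1b. Of all tested features, 20.4% then did not overlap, 9.5% with melatonin above. Without melatonin animal 5, 1 of the 9 did not overlap, Aurka, with melatonin lower, where 14.9% of all features did not, 8.17% with melatonin below. The shares of 20.4% and 14.9% exceed the 8.38% with all 6 animals, since fewer animals overlap less readily. Without vehicle animal 1, Ccna2 had a log2 change of 0.67, an unadjusted p of 0.0399 and a limma adjusted p of 0.909. Vehicle animal 1 was highest for 4 of the 9 genes, against 12.3% of all features, and melatonin animal 5 for 4, against 17.1%. Leaving out either animal therefore shifts these genes by itself, which the shares over all features do not take into account. Nothing about a change of these genes is read from the counts or the unadjusted p.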

How the data were processed

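Per the labels' protocols, polyadenylated RNA of each rat was fragmented and primed with random hexamers, with no strand marking described, so antisense transcripts cannot be told apart. Only rats of 1 sex and stock were studied, 3 per group, and each rat is 1 sample. The deposited table holds FPKM per RefSeq transcript and animal, rounded by the authors to 2 decimals, per the file headers. Build rn6, RSEM, Bowtie2 and BWA 0.7.10-r789 are named, without roles, per the submitters' processing notes. The authors' deposited table also gives a log2 ratio of group means (a 0 taken as 0.01 FPKM) and a score headed as a probability. Its method is not given in the sources used here. Their means were recomputed to within 3.33e-06 FPKM and their ratios to within 4.31e-08. The score was not used.

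Of 13647 transcripts, 12883 were matched by accession to RefSeq gene symbols (assembly GRCr8, used for names and promoter sequences, not for the authors' build), giving 12340 genes, 385 of them sums of several transcripts, and 764 unmatched rows kept as they were. Each of the 9 genes is 1 transcript row. Features with a mean of at least 1 FPKM over the 6 animals, 10137 of 13104, were fitted with limma 3.58.1 in R 4.3.3 on log2(FPKM + 1), with a mean trend, two-sided, Benjamini-Hochberg adjustment over all of them, and called at 0.05. This scale understates the fold changes of low genes. The fit was tested first on simulated data whose errors were drawn independently for each gene. That simulation lacks the variation between animals that genes share here, so it does not cover it. The smallest adjusted p of any feature was 0.182.

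Depth was estimated from the steps of low FPKM values with 35 bases taken off each length. This put 90.1% to 93.1% of the values used within 0.1 of a whole read, and the read numbers given are estimates. Errors over 3 animals are biological and technical together.

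The members, lists and tests were chosen with earlier results of these data known, and the shared high animals and the replication genes had been seen then, so neither is independent support. Named genes are the 9 with a row and, from each list, the tested gene with the smallest p and the 2 with the highest mean. The 10 closest in pattern were added, passing over symbols that begin with LOC or RGD. Topoisomerase 2-alpha was taken from its protein description after its row was found unmatched. Alternatives were 3 scalings, 2 filters, a pseudocount of 0.1, limma voom on estimated reads, unsummed transcripts and leaving out each animal. Scaling to the geometric mean of the 9 genes was added after seeing the data.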

Additional observations from a re-analysis of the deposited data

How the results depend on the processing

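None of the mitotic genes was called under any of 15 other settings, and 81 of 81 changes of single genes of the 9 kept their direction under the settings that use all 6 animals. The smallest adjusted p of these genes was 0.597, without melatonin animal 4. limma voom on estimated reads called 0 features in either direction, and 0 of the 9 had an unadjusted p under 0.05 there. Over all features, 0 were called higher and 0 lower, but 13 and 7 with scaling to the 9 genes, a setting chosen after seeing the data, and 1 was lower with no filter on low values. Leaving out 1 animal gave 0 to 4 called higher, 4 without melatonin animal 4 and 3 without vehicle animal 1, and 0 lower. Mitotic genes whose groups did not overlap numbered 0, against 8.38% of all features. There were 2 with scaling to the 9 genes, against 1.62%, a share that the scaling itself lowers, and 0 to 3 with 1 animal left out, against 14.9% to 29.5%. Their median change was 0.16, with 0.13 to 0.18 under the planned settings on all animals, 0.07 with scaling to the 9 genes, and -0.15 without melatonin animal 5 to 0.39 without vehicle animal 1.

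With 1 animal left out, 12 of 54 changes of these genes turned sign. The changes ran from -0.09 to 0.43 for Mki67, -0.44 to 0.07 for Ccnb1, -0.10 to 0.63 for Cdk1, -0.20 to 0.02 for Aurka, -0.15 to 0.41 for Aurkb, -0.30 to 0.18 for Plk1 and -0.46 to 0.18 for Cdc20. The signs of Ccna2, at 0.18 to 0.67, and Bub1b, at 0.02 to 0.44, did not turn. Mki67 and Aurkb turned only without melatonin animal 5. No paired analysis was possible because melatonin and vehicle animals carry different numbers. Depth limits Bub1b most, at 27 to 61 estimated reads per library. With 3 animals a group, changes inside the printed intervals cannot be told from 0.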
